A study of Mus musculus with 10 samples.

Results

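The genes of oxidative phosphorylation were examined in RNA-Seq data from mouse germ cells, with attention to 4 isoforms that are made in the testis. A gene was a member when its symbol began with Nduf, Uqcr, Atp5, Cox4, Cox5, Cox6, Cox7 or Cox8, or was Sdha, Sdhb, Sdhc, Sdhd, Cycs or Cyct. This gave 91 members among 15507 listed genes: 4 testis isoforms (Cox6b2, Cox7b2, Cox8c and Cyct) and 87 others. All 91 members passed the filter on low counts and were tested, among 15389 genes tested in all. The germ cells were dispersed from whole testes of 5 wild-type (WT) and 5 homozygous GRTH knock-in (KI) mice aged 45 days, with 1 library per mouse, and spermatogonia, spermatocytes and spermatids were sequenced together. GRTH, encoded by Ddx25, is a testicular RNA helicase, and in the KI mice a human GRTH gene bearing R242H stands in its place. Fewer cells of a type and less RNA per cell cannot be told apart in such bulk samples.

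Oxidative phosphorylation takes place in the inner mitochondrial membrane. Complex I (NADH dehydrogenase) and complex II (succinate dehydrogenase) pass electrons through ubiquinone to complex III, cytochrome c carries them to complex IV (cytochrome c oxidase), and the proton gradient built on the way drives ATP synthase. Most subunits are encoded in the nucleus and a few in mitochondrial DNA, and several nuclear-encoded subunits have a second gene that is used in male germ cells, where it takes the place of the copy used in other tissues.

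The testis isoforms were compared with the somatic counterparts Cox6b1, Cox7b, Cox8a and Cycs. The first 90 coding bases of each gene, read from the GENCODE vM21 annotation of mm10, show how far a short read can tell the members of a pair apart. Capitals mark bases that differ from the partner or have none when the whole coding sequences are aligned.
Cox6b2: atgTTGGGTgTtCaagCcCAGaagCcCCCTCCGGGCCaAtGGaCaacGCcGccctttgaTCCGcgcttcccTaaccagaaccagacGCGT
Cox6b1: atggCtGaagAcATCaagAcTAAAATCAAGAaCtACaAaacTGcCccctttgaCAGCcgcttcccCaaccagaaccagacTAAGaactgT
Cox7b2: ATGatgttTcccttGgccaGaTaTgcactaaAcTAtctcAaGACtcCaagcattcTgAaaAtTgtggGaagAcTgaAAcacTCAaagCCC
Cox7b: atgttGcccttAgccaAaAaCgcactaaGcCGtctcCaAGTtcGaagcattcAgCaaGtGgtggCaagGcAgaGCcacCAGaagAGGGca
Cox8c: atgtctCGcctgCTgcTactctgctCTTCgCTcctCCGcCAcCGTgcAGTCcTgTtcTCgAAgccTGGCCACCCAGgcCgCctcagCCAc
Cox8a: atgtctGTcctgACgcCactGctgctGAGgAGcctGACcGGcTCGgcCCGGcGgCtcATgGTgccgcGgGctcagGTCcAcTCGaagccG
Cyct: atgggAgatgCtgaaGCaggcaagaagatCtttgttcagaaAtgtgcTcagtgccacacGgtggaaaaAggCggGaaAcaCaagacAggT
Cycs: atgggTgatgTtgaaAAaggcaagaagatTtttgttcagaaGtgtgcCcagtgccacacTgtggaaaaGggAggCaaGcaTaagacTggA
Over the whole coding sequence, identity was 58.5% for Cox6b2 and Cox6b1, 63.8% for Cox7b2 and Cox7b, 45.9% for Cox8c and Cox8a, and 76.2% for Cyct and Cycs. The longest identical run was 14 bases for Cox6b2 and for Cyct, 11 for Cox7b2 and 9 for Cox8c. Of the 8 genes, 7 shared no 100-base window of their transcripts with another gene. The exception was Cycs, for which 22.6% of the windows occurred in other transcripts, among them the pseudogenes Gm10053, Gm10108 and Gm13772, so its counts are less certain. In mm10 the testis isoforms lie at chr7:4751792-4753094 (Cox6b2), chr5:71442823-71548205 (Cox7b2), chr12:102899306-102900534 (Cox8c) and chr2:76353942-76360453 (Cyct). Their counterparts lie at chr7:30616971-30626114 (Cox6b1), chrX:106015700-106022450 (Cox7b), chr19:7215158-7217616 (Cox8a) and chr6:50562563-50566569 (Cycs).

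Between 12722086 and 16422347 reads were assigned to genes per library, and values are normalized counts, that is reads divided by the size factor of the library. The mouse Ddx25 gene had 7615, 7782, 5198, 11101 and 9458 normalized counts in the WT libraries and 146, 194, 161, 2.88 and 1.84 in the KI libraries, so each library matched its label (limma, adjusted p = 5.63e-05). The remaining Ddx25 counts in KI were higher in libraries 1 to 3 than in libraries 4 and 5, and their source was not tested. In both genotypes, libraries 4 and 5 differ from the first 3 in read quality in the study's mapping summary, and the second principal component separated them. Effects within each set are therefore also given for some of the genes and for the ratios of the 4 isoform pairs, but not for every gene named. The summed normalized counts of 10 elongating spermatid markers (transition proteins, protamines and others) were 221400 to 398900 in WT and 31900 to 79930 in KI, and 9 of the 10 fell. For 8 round spermatid markers the sums were 25400 to 30490 and 13080 to 22750, with 1 past both thresholds and 5 of 8 lower at the adjusted p. None of 8 spermatocyte or 7 spermatogonial markers passed both thresholds, and 1 of each list, Spo11 and Gfra1, was lower at the adjusted p. By contrast, 3 of 7 Leydig cell markers rose past both thresholds (list sums 10290 to 18070 in WT and 14780 to 25690 in KI) and 6 of 9 macrophage markers did so (787.7 to 1032 and 1190 to 1559). Past both thresholds were also 2 higher and 1 lower of 5 peritubular myoid markers, 2 higher of 5 endothelial, 1 higher and 1 lower of 5 erythrocyte and none of 8 Sertoli cell markers. At the adjusted p alone, 4 of 7 Leydig cell and 1 of 8 Sertoli cell markers were higher. No marker was at 0 in every library. The part of these shifts in the results that follow was not tested.

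Oxidative phosphorylation genes differed little between genotypes as a set. Only 2 of 91 members (2.2%) were called (limma, adjusted p below 0.05 and at least 1.5-fold), against 14.4% of all genes tested. Both, Ndufaf1 and Atp5mpl, fell in KI, where 8.22% of all genes were called lower and 6.13% higher. On the adjusted p alone, 8 of 91 members (8.79%) passed against 22.9% of all genes, with 1 higher (9.65% of all genes) and 7 lower (13.3%). The libraries of the genotypes did not overlap for 6 members (6.59%), against 17.7% of all genes. The median log2 fold change, KI against WT, was -0.05 over the members and 0.03 over all genes. Estimates were below 0 for 55 of 91 members and for 7140 of the 15389 genes tested. Members with a log2 fold change within 0.25 of 0 numbered 67 of 91 (73.6%), compared with 55.4% of all genes. Mice with the same number deviated together, and with this number as a block 19 of 91 members passed the adjusted p, 3 higher and 16 lower, against 32% of all genes. With the library set as a term in its place, 2 were higher and 15 lower, against 14.2% and 17.2% of all genes. Whether the number pairs the mice beyond their library set was not tested. When libraries were scaled to their totals, which moved the median of all genes to 0.25, 20 members were higher and 1 lower at the adjusted p, against 32.6% and 7.92% of all genes, and Ndufaf1 (-0.50) and Atp5mpl (-0.51) were no longer past a 1.5-fold change. The plot of fold changes by complex shows the whole set.

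**Figure D1:**
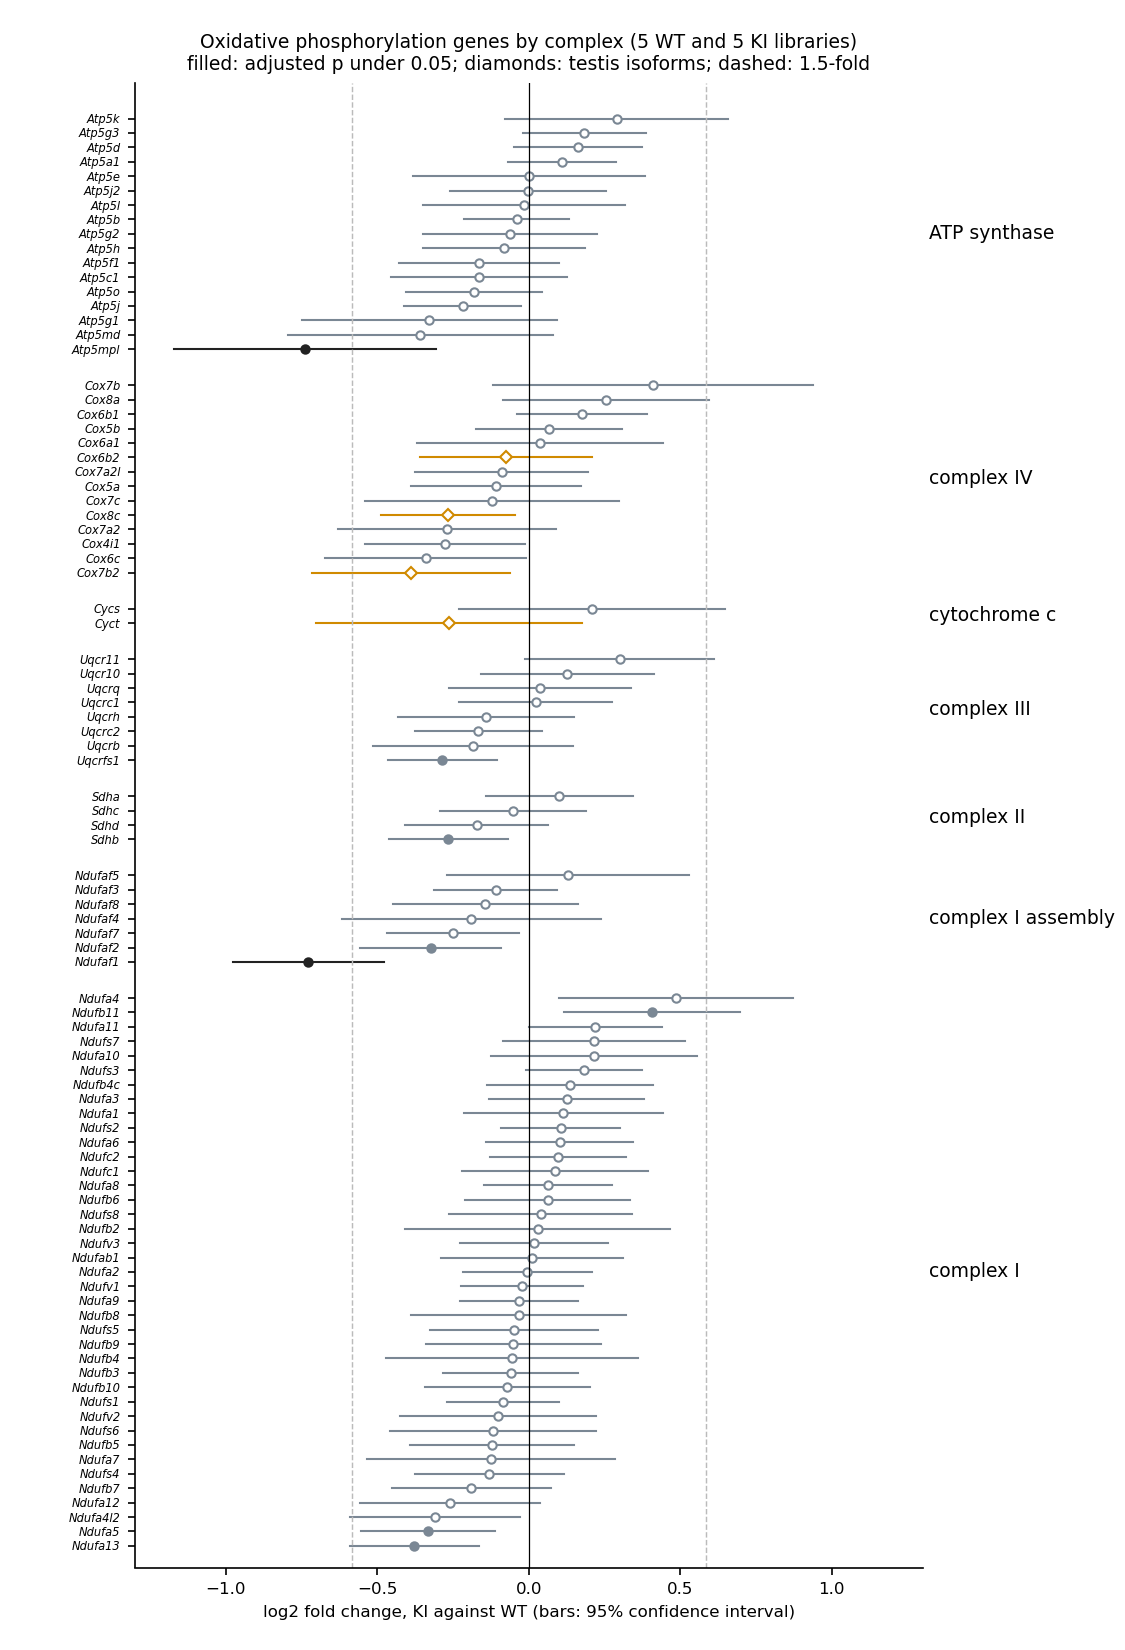
Log2 fold change of each of the 91 members (x axis, KI against WT, with its 95% confidence interval) by complex, in 5 WT and 5 KI libraries. Filled symbols have an adjusted p under 0.05, diamonds are the testis isoforms and dashed lines mark a 1.5-fold change; only Ndufaf1 (-0.73) and Atp5mpl (-0.74) are past both thresholds.

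Each of the 4 testis isoforms had a lower mean in KI than in WT, with log2 estimates of -0.39 for Cox7b2, -0.27 for Cox8c, -0.26 for Cyct and -0.08 for Cox6b2, and none of these passed the test. At an unadjusted p under 0.05 it was 2 of the 4, where the share of all genes is at least the 22.9% that passed limma's adjusted p. By adjusted p, edgeR's quasi-likelihood test gave 0 of the 4 and DESeq2 gave 1. The shares of all genes by edgeR and DESeq2 at the adjusted p alone are not given here. Their median was -0.27, and the median of the other 87 members was -0.05, of which 51 had an estimate below 0 and 36 above. Cox8c, Cox6b2 and Cox7b2 encode subunits of cytochrome c oxidase, and Cyct encodes the cytochrome c of germ cells. The somatic counterparts had estimates above 0, from 0.18 for Cox6b1 to 0.41 for Cox7b, which did not pass either.

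Cox7b2 had 1713, 1532, 1249, 1088 and 913 normalized counts in the WT libraries and 1172, 880, 970, 1012 and 836 in the KI libraries. The ranges overlapped, since the WT values fell into a high set (libraries 1 to 3) and a lower set (libraries 4 and 5). Its log2 fold change was -0.39 (SE 0.15, 95% confidence interval -0.72 to -0.06, limma adjusted p = 0.0825), with -0.57 in libraries 1 to 3 and -0.12 in libraries 4 and 5. With the mice blocked by number its adjusted p was 0.00983, and DESeq2 on recovered reads gave 0.0475. Leaving out WT library 5 also brought it past the test (adjusted p = 0.0170).

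Cox8c had 4695, 4270, 4010, 4422 and 3725 normalized counts in WT and 3859, 3522, 3696, 3746 and 2794 in KI. KI libraries 1 and 4 lay within the WT range and the other 3 below it, library 5 furthest. The log2 fold change was -0.27 (SE 0.10, 95% confidence interval -0.49 to -0.04, limma adjusted p = 0.0797), and the adjusted p with the block was 0.0124.

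Cyct had 1048, 871, 849, 615 and 527 normalized counts in WT and 819, 750, 753, 534 and 408 in KI. Each KI library was below the WT library of the same number, while the 2 ranges overlapped because libraries 4 and 5 were low in both genotypes. Its log2 fold change was -0.26 (SE 0.21, 95% confidence interval -0.70 to 0.18, limma adjusted p = 0.401), and with the block the adjusted p was 0.0145. The value rested in part on single libraries, with -0.11 without KI library 5 and -0.15 without WT library 1 for Cyct.

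Cox6b2 had 3299, 2959, 3055, 4561 and 4015 normalized counts in WT and 2995, 2993, 3534, 4236 and 3135 in KI, with full overlap. The log2 fold change was -0.08 (SE 0.13, 95% confidence interval -0.36 to 0.21, limma adjusted p = 0.739), and it did not pass with the block either (adjusted p = 0.536). Its sign was positive when scaled to library totals (0.15), to the upper quartile (0.02) and in libraries 1 to 3 alone (0.03).

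**Figure D2:**
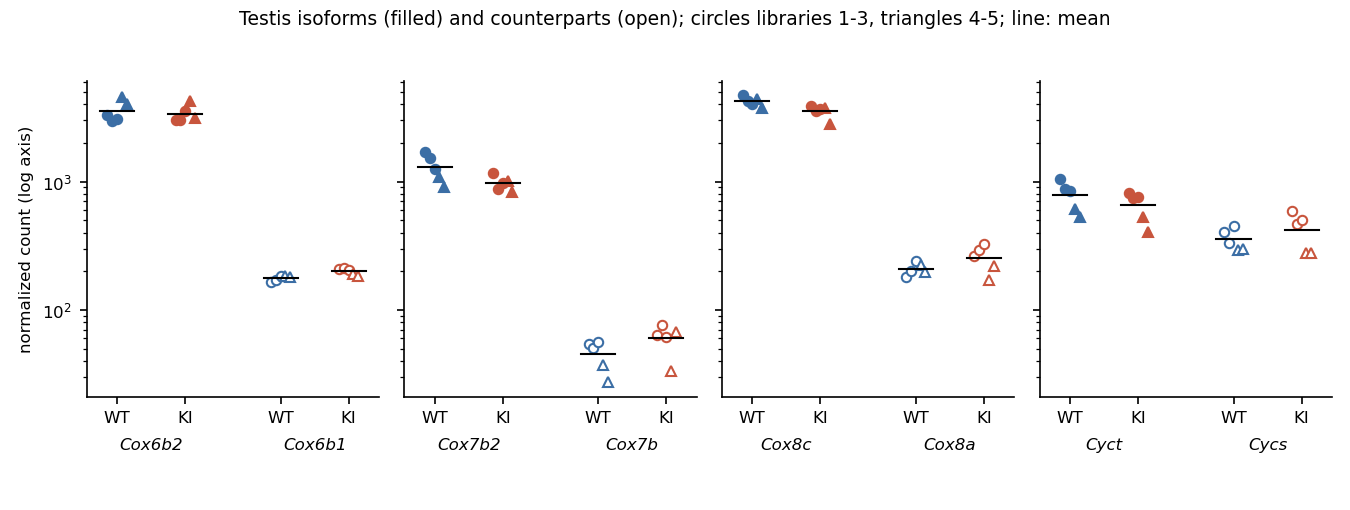
Normalized counts (log axis) of each testis isoform (filled) and its somatic counterpart (open) in each WT (blue) and KI (red) library, with circles for libraries 1 to 3, triangles for libraries 4 and 5 and a line at the mean. The counts are not corrected for transcript length; WT and KI overlap for each of the 8 genes but Cox6b1.

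Cox6b1, Cox7b and Cox8a had far lower counts than their testis isoforms, and the counts of Cycs were nearer to those of Cyct. Cox6b1 had 165, 172, 182, 185 and 182 normalized counts in WT and 210, 213, 206, 189 and 185 in KI. These values did not overlap before rounding, but the log2 fold change of 0.18 did not pass the test (SE 0.10, limma adjusted p = 0.235). Cox7b, an X-linked gene, had 54, 51, 57, 37 and 27 in WT and 64, 76, 62, 34 and 67 in KI, and its 29 reads in 1 library were the fewest of any member. Cox8a had 181, 200, 243, 224 and 199 in WT and 263, 293, 327, 170 and 222 in KI. Cycs, the somatic cytochrome c, had 403, 332, 449, 291 and 296 in WT and 594, 463, 502, 279 and 277 in KI. In Cox8a and Cycs the KI libraries 1 to 3 were the high ones. The log2 fold changes were 0.41 for Cox7b (limma adjusted p = 0.264), 0.26 for Cox8a (0.281) and 0.21 for Cycs (0.524). Leaving out each library in turn gave 0.25 (without WT library 5) to 0.61 (without KI library 4) for Cox7b, 0.16 (without KI library 3) to 0.39 (without KI library 4) for Cox8a, and 0.07 (without KI library 1) to 0.34 (without KI library 4 or 5) for Cycs. Within libraries 4 and 5 the estimates for Cox8a and Cycs were -0.12 and -0.08.

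The ratio of testis isoform to counterpart within a library does not depend on how libraries were scaled, apart from the 1 added before the log. The log2 ratio was lower in KI than in WT for Cox7b2 to Cox7b and for Cyct to Cycs. For Cox7b2 to Cox7b it was 4.95, 4.88, 4.43, 4.84 and 5.01 in WT and 4.18, 3.51, 3.95, 4.87 and 3.62 in KI, so that KI library 4 lay among the WT values and the other 4 below all of them. The difference was -0.80 (SE 0.26; exact two-sided permutation test, p = 0.0238, adjusted over the 4 pairs 0.0476). For Cyct to Cycs it was 1.38, 1.39, 0.92, 1.08 and 0.83 in WT and 0.46, 0.69, 0.58, 0.93 and 0.56 in KI. KI library 4 was again the only KI library within the WT range, and the difference was -0.47 (SE 0.14; exact permutation p = 0.0238, adjusted 0.0476).

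For Cox8c to Cox8a the log2 ratio was 4.69, 4.41, 4.04, 4.30 and 4.22 in WT and 3.87, 3.58, 3.49, 4.45 and 3.65 in KI. Here, too, KI library 4 lay among the WT libraries, and the difference of -0.52 (SE 0.20; exact permutation p = 0.0476) did not pass after adjustment (0.0635). For Cox6b2 to Cox6b1 it was 4.31, 4.09, 4.06, 4.62 and 4.46 in WT and 3.83, 3.81, 4.09, 4.48 and 4.08 in KI, with 2 KI libraries below the lowest WT library. The difference was -0.25 (SE 0.16; exact permutation p = 0.175, adjusted 0.175).

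The size of the ratio difference varied between the sets of libraries. For libraries 1 to 3, then for 4 and 5, it was -0.88 and -0.68 for Cox7b2 to Cox7b, -0.65 and -0.21 for Cyct to Cycs, -0.73 and -0.21 for Cox8c to Cox8a, and -0.24 and -0.26 for Cox6b2 to Cox6b1. The adjusted p of 0.0476 depended on single libraries: for Cox7b2 and for Cyct it passed only when WT library 3 or KI library 4 was the one left out, and otherwise reached up to 0.111. Of 252 arrangements the smallest p possible is 0.00794. Comparing mice by number, the ratio was lower in KI in 5 of 5 pairs for Cyct and in 4 of 5 for each of the others. An exact two-sided sign-flip test over these pairs, chosen after the data were seen, gave p = 0.0625 for Cyct and 0.125 for each of the other 3 (adjusted 0.125 for all 4), and 0.0625 is the smallest p that this test can give with 5 pairs.

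Despite these differences the testis isoform remained the main transcript of each pair in both genotypes. Of the normalized counts per kilobase of exon of a pair, Cox7b2 made up 98.2% ± 0.32 in WT and 96.7% ± 1.09 in KI (SD, n = 5 each). The share was 96.0% ± 0.62 and 94.3% ± 1.28 for Cox8c, 94.3% ± 0.88 and 93.2% ± 1.12 for Cox6b2, and 91.1% ± 1.44 and 88.1% ± 1.27 for Cyct. Lengths are those of the joined protein-coding exons, 3123 bases for Cycs and 655 for Cyct, so the Cyct share depends on them. Without correction for length, mean normalized counts of Cyct and Cycs were 782 and 354 in WT and 652 and 423 in KI.

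**Figure D3:**
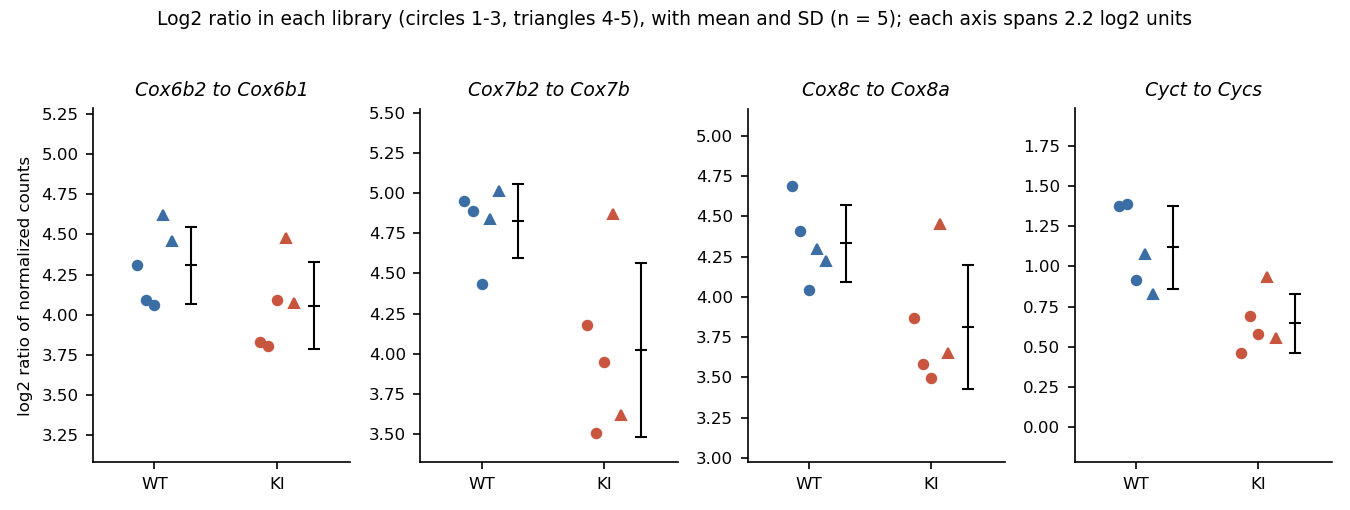
Log2 ratio of testis isoform to somatic counterpart in each WT (blue) and KI (red) library, with circles for libraries 1 to 3, triangles for libraries 4 and 5, and the mean with SD (n = 5). The mean ratio is lower in KI in each pair, by 0.80 for Cox7b2 to Cox7b at most, and the high KI triangle in each panel is library 4.

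Complex I, the entry point for electrons from NADH, held 39 members, with 20 estimates below 0 and 19 above and a median of -0.01. Its members at the adjusted p were Ndufa13 and Ndufa5, which fell, and Ndufb11, which rose. All 3 encode accessory subunits, of which Ndufa13 is also known as GRIM-19. Ndufa13 had 739, 725, 832, 894 and 761 normalized counts in WT and 522, 594, 647, 696 and 584 in KI, without overlap (log2 fold change -0.38, SE 0.10, limma adjusted p = 0.0123). Of the exonic bases of Ndufa13, 30% overlap Tssk6, a spermatid kinase gene on the other strand, which fell from 11565 ± 2368 to 1481 ± 542 normalized counts (SD, n = 5; log2 fold change -3.02, limma adjusted p = 1.42e-07). Whether the counting used strand is not given in the sources used here, so reads from Ndufa13 and Tssk6 cannot be told apart in the overlap.

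Ndufa5 had 514, 425, 496, 536 and 526 normalized counts in WT and 350, 361, 430, 449 and 395 in KI, where WT library 2 lay below KI libraries 3 and 4 (log2 fold change -0.33, SE 0.10, limma adjusted p = 0.0307). The difference was -0.33 in both sets of libraries. Ndufb11, on the X chromosome, had 110, 105, 124, 127 and 126 in WT and 195, 143, 176, 126 and 155 in KI. Only KI library 4 lay within the WT range (log2 fold change 0.41, SE 0.14, limma adjusted p = 0.0421), and the first 3 libraries gave 0.59 against 0.14 in the last pair. Of the exonic bases of Ndufb11, 12.9% overlap Rbm10, so its counts are less certain. Ndufa4 carries a complex I name although its product is now placed in complex IV, and its value of 0.49 was the highest of any member and did not pass (limma adjusted p = 0.0669, with the block 0.00670, DESeq2 0.0424). Ndufb4c, which GENCODE lists as a processed pseudogene, shares 100% of its windows with Ndufb4 and is therefore uncertain. Ndufa7 was the highest of complex I per kilobase of exon, at 3519 normalized counts per kilobase in WT and 3320 in KI (log2 fold change -0.13, adjusted p = 0.696).

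The complex I assembly factors, which help to build the complex and are not part of it, held 7 members with a median of -0.19, and 6 of 7 estimates were below 0. Ndufaf1, an early assembly factor at chr2:119655446-119662834, fell furthest among them. It had 292, 240, 258, 214 and 244 normalized counts in WT and 169, 129, 147, 157 and 148 in KI, so every KI library lay below every WT library. Mean levels were 250 ± 28.6 and 150 ± 14.5 (SD, n = 5), a log2 difference of -0.73 (SE 0.12, limma adjusted p = 3.35e-04). Libraries 1 to 3 alone gave -0.83 and libraries 4 and 5 gave -0.58. Ndufaf2 fell by less, from 795, 671, 696, 926 and 754 in WT to 633, 581, 669, 664 and 515 in KI, again without overlap (log2 fold change -0.32, SE 0.11, limma adjusted p = 0.0437). However, 62.4% of the windows of Ndufaf2 occur in transcripts of other genes, so its value is uncertain. Ndufaf3 was the highest per kilobase, at 3231 in WT and 2998 in KI normalized counts per kilobase (log2 fold change -0.11, adjusted p = 0.456).

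Succinate dehydrogenase, the enzyme shared by the respiratory chain and the tricarboxylic acid cycle, has 4 members. Sdhb, the iron-sulfur subunit and the highest of the 4 per kilobase (1084 normalized counts per kilobase in WT, 901.4 in KI), fell in KI. It had 1161, 1170, 1226, 1431 and 1200 normalized counts in WT and 960.1, 1143, 1035, 1082 and 927.4 in KI. Its groups did not overlap but came close, and the test was near its limit (log2 fold change -0.27, SE 0.09, limma adjusted p = 0.0496). Leaving out any library but KI library 2 took the adjusted p above the threshold, up to 0.111 without WT library 4. Sdha, the flavoprotein, had a log2 fold change of 0.10 (adjusted p = 0.584), and the membrane anchors Sdhc and Sdhd had -0.05 and -0.17 (adjusted p = 0.798 and 0.297). In Sdha the values were 2518, 2378, 2158, 2267 and 2550 in WT and 2224, 2373, 2159, 2882 and 3232 in KI, so only KI libraries 4 and 5 were above the WT range.

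Complex III held 8 members, 4 with an estimate below 0 and 4 above. Uqcrfs1, the Rieske iron-sulfur protein, fell from 1978, 1861, 1710, 1958 and 1757 normalized counts in WT to 1526, 1651, 1535, 1539 and 1354 in KI. Every KI library lay below every WT library (log2 fold change -0.29, SE 0.08, limma adjusted p = 0.0234), with -0.23 in libraries 1 to 3 and -0.36 in libraries 4 and 5. Uqcrc1, a core protein and the highest of the complex per kilobase (3420 normalized counts per kilobase in WT and 3498 in KI), had a log2 fold change of 0.02 (adjusted p = 0.916).

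Complex IV held 14 members with a median of -0.10, with 9 estimates below 0 and 5 above. None of the 14 passed limma's adjusted p, against 22.9% of all genes. At an unadjusted p under 0.05 it was 4 of the 14, where the share of all genes is at least that 22.9%. By adjusted p, 0 passed by edgeR and 1, Cox7b2, by DESeq2, for which the shares of all genes are not given here. With the mice blocked by number 4 of the 14 passed, against 32% of all genes. These were Cox7b2, Cox8c, Cox4i1 and Cox6c, a small subunit with a log2 fold change of -0.34 (limma adjusted p = 0.135, with the block 0.00963). Cox8c was the most abundant member of complex IV per kilobase of exon, at 9224 normalized counts per kilobase in WT and 7693 in KI. Of the other isoform families, Cox4i1 had 4621, 4486, 5231, 6642 and 4801 normalized counts in WT and 3776, 4755, 4706, 4511 and 3477 in KI. Its ranges overlapped (log2 fold change -0.28, SE 0.12, limma adjusted p = 0.128, with the block 0.0385). Of the exonic bases of Cox4i1, 20.1% overlap Emc8, so its counts are less certain. Cox6a1 and Cox7a2, the forms used outside heart and skeletal muscle, had log2 fold changes of 0.04 (adjusted p = 0.917) and -0.27 (adjusted p = 0.283). The sign of Cox6a1 was not stable, with -0.02 by edgeR and by DESeq2. The partner genes Cox4i2, Cox6a2 and Cox7a1 were not analysed here.

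ATP synthase held 17 members with a median of -0.06, and 12 estimates were below 0. Atp5mpl, a small proteolipid of the membrane part of the enzyme at chr12:111961374-111967009, fell and was the member with the lowest log2 fold change. It had 633, 630, 641, 419 and 377 normalized counts in WT and 411, 347, 400, 266 and 204 in KI. The KI libraries 1 and 3 reached into the WT range, since libraries 4 and 5 were lower in both genotypes, but within each set every KI library lay below every WT library. Means were 540 ± 130 and 326 ± 88.8 (SD, n = 5), and the log2 fold change was -0.74 (SE 0.20, limma adjusted p = 0.0153). Both sets gave similar values, -0.72 and -0.77. Without KI library 5 it was -0.58 (adjusted p = 0.0263), just short of a 1.5-fold change. Atp5b, the catalytic beta subunit and the highest of the complex per kilobase (4990 normalized counts per kilobase in WT and 4854 in KI), was nearly level, with a log2 fold change of -0.04 (SE 0.08, adjusted p = 0.777).

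**Figure D4:**
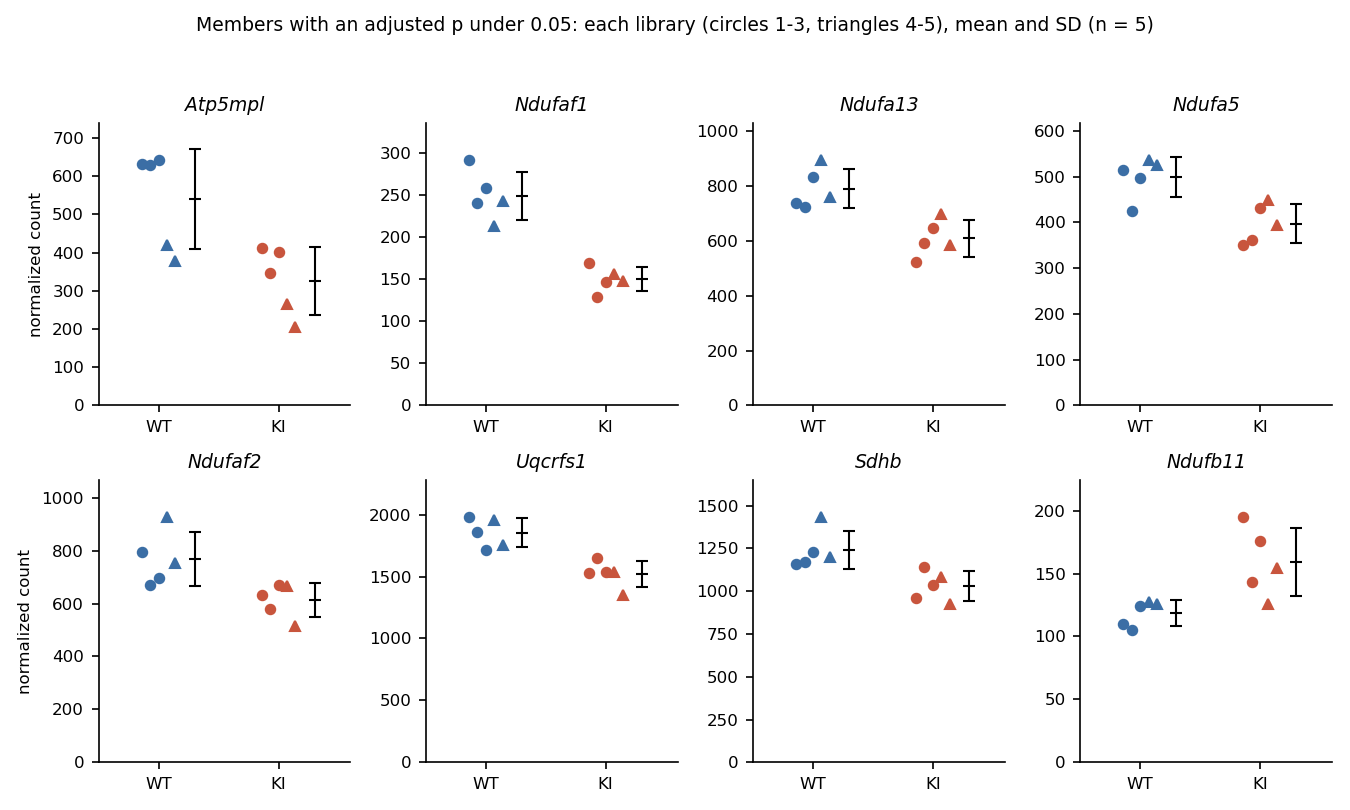
Normalized counts, from 0, of the 8 members with an adjusted p under 0.05 in each WT (blue) and KI (red) library, with circles for libraries 1 to 3, triangles for libraries 4 and 5, and the mean with SD (n = 5). The genotypes do not overlap for Ndufaf1, Ndufa13, Ndufaf2, Uqcrfs1 and Sdhb, and Ndufb11 is the 1 member that is higher in KI.

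The members were also described within each set of libraries. In libraries 4 and 5, 71 of 91 members had an estimate below 0 (median -0.18), whereas in libraries 1 to 3 it was 44 of 91 (median 0.03). Over all genes the medians were 0.02 in both sets. Of the 15389 genes tested, 7389 had an estimate below 0 in libraries 4 and 5 and 7246 in libraries 1 to 3. In libraries 1 to 3 alone, 15 members were higher and 7 lower at the adjusted p, against 13.3% and 17.9% of all genes. In libraries 4 and 5 alone, where 2 mice were set against 2, no member was higher (1 at an unadjusted p under 0.05, against 11.1% of all genes) and 1, Atp5mpl, was lower by limma, against 3.42% and 7.62% of all genes. The difference between the sets, tested for each gene as an interaction and chosen after the data were seen, passed the adjusted p for 0 of 91 members and 0.247% of all genes. At an unadjusted p under 0.05 it was 18 of 91 members (19.8%) against 16.1% of all genes. The members with the lowest interaction p that are marked in the plot of the sets, Ndufb2 and Ndufb4, were chosen after their values were seen. They had 0.41 and 0.37 in libraries 1 to 3 and -0.54 and -0.69 in libraries 4 and 5 (limma interaction, adjusted p = 0.0747 and 0.103). Of the exonic bases of Ndufb2, 8.6% overlap other genes, and 16.0% of the windows of Ndufb4 occur in other transcripts, so both are less certain. Without KI library 5 the median of the members was 0.01.

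**Figure D5:**
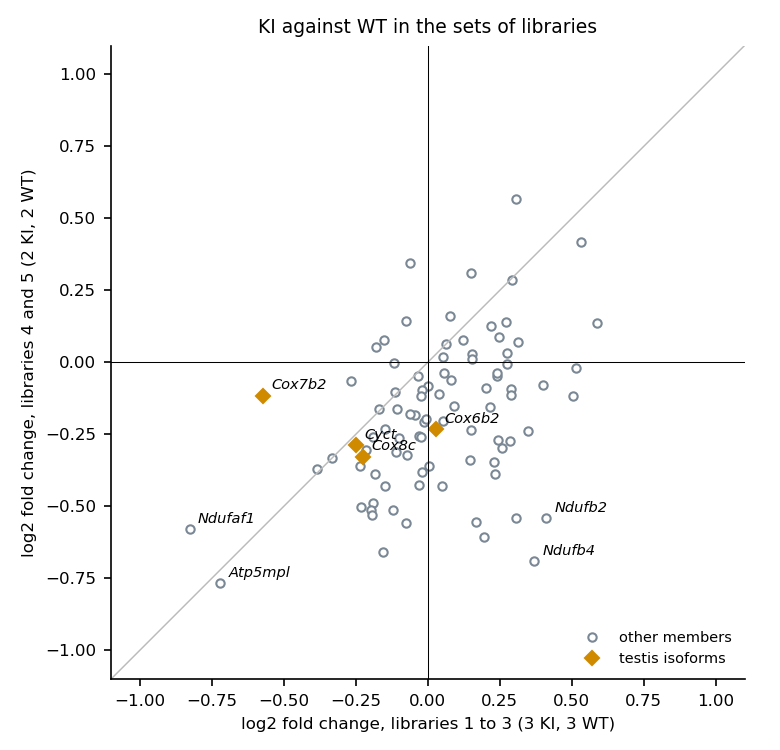
Log2 fold change, KI against WT, of the 91 members in libraries 1 to 3 (x axis) and in libraries 4 and 5 (y axis), with testis isoforms as diamonds and the line of equal values. Of the 91 members 76 lie below the line, and Ndufaf1 and Atp5mpl are low on both axes.

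The wider pathway was followed in 79 genes outside the member list, with a median log2 fold change of 0.05. Of these, 3 rose and 6 fell past both thresholds (11.4%), against 14.4% of all genes tested (6.13% higher and 8.22% lower). Among the assembly factors, Ecsit, needed for complex I, rose from 361 ± 51.8 to 752 ± 68.8 normalized counts (SD, n = 5; log2 fold change 1.07, limma adjusted p = 8.56e-06). Lyrm7, the chaperone that holds the Rieske protein Uqcrfs1 before its insertion into complex III, fell from 551 ± 56.4 to 271 ± 43.8 (log2 fold change -1.03, limma adjusted p = 2.88e-05). These were the only calls among 7 further complex I and 6 complex III assembly factors. None of 19 complex IV assembly factors, 4 complex II assembly factors, 4 factors of ATP synthase, 6 nucleotide carriers and porins or the complex III core gene Cyc1 (log2 fold change 0.03) passed both thresholds. At the adjusted p alone, 1 of the 19 complex IV assembly factors was higher and 3 were lower. In the same way, 1 of the 6 carriers and porins was higher. The shares of all genes were 9.65% higher and 13.3% lower. Among 17 genes of the tricarboxylic acid cycle and pyruvate entry, Idh2 (0.61, limma adjusted p = 0.0470) and the X-linked Pdha1 (0.69, limma adjusted p = 0.0203) rose past both thresholds. Sucla2, a subunit of succinyl-CoA ligase, fell past both (-0.61, limma adjusted p = 2.58e-04). At the adjusted p alone, 2 of the 17 were higher and 2 lower. Idh2 lost the adjusted p in 9 alternative settings, among them 7 of the 10 that leave out a library (up to 0.110), and Pdha1 lost it in 4 (up to 0.209, in libraries 4 and 5 alone). Pdha2, the testis form of Pdha1, had a log2 fold change of 0.08 (adjusted p = 0.570).

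Other testis isoforms of energy enzymes spanned a wider range than the testis isoforms of the respiratory chain. Gapdhs and Pgk2, glycolytic enzymes of spermatids, fell (log2 fold change -2.13 and -1.07, limma adjusted p = 3.73e-07 and 0.00105). Ldhc, the lactate dehydrogenase of germ cells, had -0.29 (adjusted p = 0.0812), and Slc25a31, the germ cell ADP/ATP carrier, was at -0.00 (adjusted p = 0.998). Of 10 regulators of mitochondrial biogenesis, Tfam fell from 1099 ± 349 to 323 ± 78.0 normalized counts (log2 fold change -1.74, limma adjusted p = 5.33e-05). The product of Tfam packages mitochondrial DNA and takes part in the transcription of that DNA. Tfb1m, a methyltransferase of mitochondrial ribosomal RNA, fell from 703 ± 41.5 to 433 ± 40.3 (log2 fold change -0.70, adjusted p = 6.47e-05). Mitochondrially encoded subunits were not analysed here.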

How the data were processed

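RNA of germ cells from 5 WT and 5 KI mice was sequenced as 1 poly(A) library per mouse. After trimming, the authors used STAR with mm10 for alignment and Partek for counts on RefSeq genes, and divided these by DESeq2 size factors. The deposited values are thus a signal of normalized counts per gene and library. Values under 5000 reads divided by each library's step gave whole reads in 100% of cases (within 0.1 reads), so reads were recovered for the count tests. The deposited end coordinate lies 1 base beyond the last base and was shifted. The authors' strand setting is not given in the sources used here.

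KI and WT were compared by limma (3.58.1, under R 4.3.3), with a variance trend, on values logged as log2(value + 1), over the 15389 genes passing filterByExpr of edgeR (version 4.0.16), with Benjamini-Hochberg adjustment over all of them. A gene was called at an adjusted p under 0.05 and a fold change of at least 1.5; rose and fell refer to the adjusted p alone, or to both where stated. Fold changes are on the log2(value + 1) scale. A floor of 3 reads corresponds to 2.61 to 3.62 normalized counts. Log2 ratios of isoform pairs were compared by exact two-sided permutation of the libraries. The edgeR quasi-likelihood test and DESeq2 (version 1.42.0) on recovered reads, other pseudocounts, filters and scalings, the replicate block, library sets and leaving out each library were alternatives, and the tests were checked on simulated data. Same-numbered WT and KI libraries deviated together (correlations 0.306, 0.105, 0.28, 0.216 and 0.462), so the number was used as a block, although the labels state no shared litter or day. Libraries of different number were not compared in this way, so pairing beyond the split into library sets was not shown. Libraries of a genotype differed beyond sampling noise (chi-square per degree of freedom 2.68 to 46.7), so none was a copy.

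The members and lists were chosen with earlier results of these data known. Genes were named by rule: the testis isoforms and counterparts, other isoform pairs of complex IV, the Sdh genes, each member past the adjusted p, the highest member per length of each complex, and pathway genes past the call. Ndufa4, Cox6c, Ndufb4c, Ndufb2, Ndufb4, Pdha2, Ldhc and Slc25a31 were named outside it, after their values were seen. Lengths, windows of 100 bases and coding sequences were taken from GENCODE vM21, which matched 91 of 91 members. The length of a gene joins the exons of all its protein-coding transcripts. No protein sequences were used here.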

Additional observations from a re-analysis of the deposited data

Results flagged for a closer look

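In 3 of 78 groups of 5 libraries tested over the named genes, 1 library stood apart from the other 4 by more than Dixon's 95% critical value; chance gives about 1 group in 20. Sdhb had 1431 normalized counts in WT library 4, where the other WT libraries had 1161 to 1226. Gapdhs had 3587 in KI library 5, where the others had 4775 to 5218, and Tfam had 187.7 in the same library, where the others had 334.6 to 385.1.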

How the results depend on the processing

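Scaling to library totals moved the median of all genes to 0.25 (upper quartile, 0.12; deposited size factors, 0.03), since the KI libraries had lower normalized totals (12939539 to 14599434) than the WT libraries (15456693 to 16736057). The median of the members relative to all genes was -0.08 under each of these scalings. A scaling moves all genes of a library nearly alike, so it could hardly change this difference. The same difference was 0.005 in libraries 1 to 3, -0.20 in libraries 4 and 5, and -0.007 without KI library 5. Of all calls 42.7% were higher in KI, 73.1% with library totals and 55.8% with the upper quartile. Genes called higher numbered 944, and 549 with a mean of at least 50, 2145 with totals and 472 in libraries 4 and 5 alone; 1265 were called lower, and 789 with totals. With totals 2 members (Ndufa4, Ndufb11) were called higher and 0 lower; in libraries 1 to 3 alone 1 was called higher (Ndufb11) and in libraries 4 and 5 alone 1 lower (Atp5mpl). Members higher at the adjusted p numbered 1, and 2 with DESeq2, for which the share of all genes is not given here. They numbered 20 with totals (32.6% of all genes), 5 with the upper quartile (15.5%) and 3 with the replicate block (14.7%). With a library set term it was 2 (14.2%), in libraries 1 to 3 it was 15 (13.3%) and in libraries 4 and 5 it was 0 (3.42%). Members lower numbered 7, and 1 with totals (7.92%), 3 with the upper quartile (10.7%), 16 with the replicate block (17.4%), 15 with the set term (17.2%) and 1 in libraries 4 and 5 (7.62%). The Cyct to Cycs ratio difference was -0.21 in libraries 4 and 5.

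Leaving out each library gave 809 to 1012 genes called higher and 1130 to 1296 lower, 0 to 1 members called higher (Ndufa4 without WT library 3) and 1 to 2 lower (1 without KI library 5). Members at the adjusted p ranged from 0 to 2 higher and 3 to 6 lower, with 3 lower without WT library 1 and 4 lower without WT library 4 or KI library 1. Leaving out each library, the ratio differences were -0.36 to -0.17 (Cox6b2), -1.01 to -0.67 (Cox7b2), -0.68 to -0.43 (Cox8c, past the adjusted p only without KI library 4) and -0.54 to -0.40 (Cyct). Signs reversed only in genes that did not pass. These were Cox6b2 (0.15 with totals, 0.019 with the upper quartile, 0.029 in libraries 1 to 3, and -0.16 to 0.018 leaving out each library, positive without WT library 4), Cox8a and Cycs (-0.12 and -0.079 in libraries 4 and 5), and Cox6a1 (-0.023 by edgeR, -0.016 by DESeq2, -0.27 in libraries 4 and 5, and -0.082 to 0.19 leaving out each library). Sdha was -0.061 in libraries 1 to 3. With totals Sdhc was 0.18, Sdhd 0.057, Atp5b 0.19, Ndufa7 0.10 and Ndufaf3 0.12, and with the upper quartile Sdhc was 0.042 and Atp5b 0.054. Ndufa7 was 0.20 in libraries 1 to 3 and -0.23 to 0.060 leaving out each library (positive without KI library 5), Sdhc -0.12 to 0.0093 (positive without KI library 4), and Uqcrc1 -0.061 in libraries 4 and 5 and -0.058 to 0.087 leaving out each library (negative when WT library 5 or KI library 2 or 3 was left out). Over the named genes 661 results were unchanged in direction and side of the threshold, 64 lost and 16 gained the adjusted p; Sdhb lost it in 14 settings, Ndufaf2 in 10, Ndufa5, Ndufb11 and Idh2 in 9 each, Uqcrfs1 and Pdha1 in 4 each, Ndufa13 in 2, Sucla2 in 1, Atp5mpl in 1 (totals) and Ndufaf1 in 1 (libraries 4 and 5). The causes were not tested. The sets of 2 libraries per genotype and the fewest reads of a member, 29 for Cox7b, limit the precision. For the ratios, the replicate block was run as an exact sign-flip test over 5 pairs, added after seeing the data. The differences were the same (-0.80 for Cox7b2 and -0.47 for Cyct), the adjusted p was 0.125, and this test cannot pass with 5 pairs, so it says nothing on stability. A blocked model of the ratios was not run.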
